A study of Mus musculus with 4 samples.

Results

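An alternative 3′ splice site (Alt3) is an upstream acceptor that competes with another acceptor for the start of the same exon. Sites 3 nt apart were set aside, and every other upstream acceptor in the deposited Alt3 table was taken, leaving out the innermost acceptor of each event, which serves as its reference. The table has 45157 rows, of which 20866 are reference sites and 2754 are sites at 3 nt. The remaining 21537 sites lie in 18529 events of 8616 genes and are the subject here. The 3 splicing tables of the series, for cassette exons, Alt3 and alternative 5′ splice sites (Alt5), hold 135197 rows in all.

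RNA came from Neuro-2a (N2a) cells, a mouse neuroblastoma line. The cells received either control siRNAs without a target (siControl) or an siRNA against Arglu1 (siArglu1) for 48 h. They then received either ethanol (Veh, the vehicle) or dexamethasone at 100 nM (Dex), which binds the glucocorticoid receptor, during a further 4 h. Each of the 4 groups is 1 library of mRNA pooled from 3 cultures, and 4 values in a row are given for siControl with Veh and with Dex, then siArglu1 with Veh and with Dex. The comparisons ask how knockdown of Arglu1, which encodes a nuclear protein rich in arginine and glutamate, and a short Dex treatment change the choice between acceptors.

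With 1 library per group there is no replicate check, so differences are given by size, with 95% intervals that cover counting error only. Arglu1 itself had 10165, 11825, 2637 and 3254 reads, a log2 ratio after knockdown of -1.92 in vehicle and -2.15 in Dex. Reads on genes ranged from 66074574 to 86541444 per library. Of the markers of sympathetic neuroblasts reported here, Hand2, Gata2, Gata3, Isl1, Stmn2, Gap43, Elavl4 and Tubb3 had 576 to 106262 reads per library, whereas Nefl and Nefm had 0 to 9. Of 8 markers of glia, immune, endothelial and connective tissue cells, Gfap, Aqp4, Ptprc, Aif1 and Cdh5 had 0 to 10 reads, Col1a1 17 to 26, and Mbp and Pecam1 95 to 204.

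During splicing, U2AF2 binds the polypyrimidine tract and U2AF1 the AG at the end of the intron, while SF1 and then the SF3A and SF3B proteins of the U2 snRNP hold the branch point. The AG itself is chosen in the last step of splicing with the help of SLU7, PRPF18 and DHX38. Acceptors within a few bases of each other share a branch point and tract, whereas distant ones have their own. Use of the upstream acceptor adds bases to the mRNA, and the reading frame is kept only when the added length is a multiple of 3.

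The added segments of 8 sites named below are printed because they show what a rise or fall in use puts into or takes from the mRNA. The capitals are the bases between the upstream and the reference acceptor, after the last 20 bases of the preceding exon and before the first 20 of the reference exon. All 8 lie in coding sequence of a GENCODE M21 transcript (GRCm38), from which the letters were read. The transcript was matched by gene identifier and by the lengths of both introns, not by position, and the positions are those of the deposited table, which uses mm9. The Ablim1 site was used more in both knockdown libraries than in the controls, the next 5 were used less, and the last 2 are among the sites named for their difference between the siControl libraries.
Ablim1, 6 nt, chr19:57121556-57121561, minus strand: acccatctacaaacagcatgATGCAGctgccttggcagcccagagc
Ttc14, 17 nt, chr3:33706761-33706777, plus strand: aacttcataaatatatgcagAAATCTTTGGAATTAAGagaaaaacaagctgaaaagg
Elf2, 36 nt, chr3:51068929-51068964, minus strand: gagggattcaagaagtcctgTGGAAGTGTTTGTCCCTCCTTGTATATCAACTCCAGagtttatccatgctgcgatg
D630045J12Rik, 48 nt, chr6:38078528-38078575, minus strand: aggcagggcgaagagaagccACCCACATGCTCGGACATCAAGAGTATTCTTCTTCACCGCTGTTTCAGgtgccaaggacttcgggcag
Neo1, 60 nt, chr9:58778923-58778982, minus strand: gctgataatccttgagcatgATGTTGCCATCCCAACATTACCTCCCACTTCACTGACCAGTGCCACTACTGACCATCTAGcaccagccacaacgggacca
Patz1, 65 nt, chr11:3206226-3206290, plus strand: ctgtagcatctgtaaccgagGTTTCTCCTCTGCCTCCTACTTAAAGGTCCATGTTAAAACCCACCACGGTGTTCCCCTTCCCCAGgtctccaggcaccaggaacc
Zfp346, 48 nt, chr13:55223643-55223690, plus strand: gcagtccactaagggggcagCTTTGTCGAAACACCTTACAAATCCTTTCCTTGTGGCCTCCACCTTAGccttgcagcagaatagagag
BC017647, 112 nt, chr11:77967199-77967310, plus strand: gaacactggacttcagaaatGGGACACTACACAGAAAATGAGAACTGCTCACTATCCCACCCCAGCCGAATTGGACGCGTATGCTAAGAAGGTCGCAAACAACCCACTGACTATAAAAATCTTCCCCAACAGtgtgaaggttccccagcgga

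The last letters of each segment are those in front of the reference acceptor, so each ends in AG. Of the sites compared, 2156 (14.4%) could be matched in this way, and 99.6% of 2133 segments ended in AG. The segment was coding for 1448 of the matched sites, untranslated for 261, partly coding for 201 and in a transcript without a coding sequence for 246. Coding segments made up 82.8% of matched frame-preserving sites under 13 nt and 81.1% of frame-shifting ones, 77.1% and 61.1% at 13 to 100 nt, and 53.6% and 38.8% over 100 nt. The matched sites are those that an annotation holds in both forms, so these shares do not describe the unmatched ones.

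The level of use is the percent spliced in (PSI), the share of an event's transcripts that take a given site, from 0 to 100. A PSI was present in all 4 libraries for 18008 sites and missing in at least 1 library for 3529. Sites were compared when at least 3 of the 4 libraries also had a coverage score of LOW or better, which stands for 20 or more junction reads in the event. A further 3074 sites missed that minimum, and 14934 sites (69.3%) in 12662 events of 5708 genes were compared. They lay 1 to 496 nt upstream of the reference acceptor, with a median of 31 nt. The median event had 149, 159, 120 and 176 junction reads, fewest in the knockdown library without Dex. In an event with 2 sites, as for 10519 of those compared, the reference acceptor moves by the same amount the other way. In an event with more, as for 4415, several sites can mirror each other.

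By bin of distance, the median use of the upstream acceptor was highest next to the reference and lowest over 100 nt, although it did not fall steadily in between. At under 13 nt (3983 sites compared), the median PSI in siControl Veh was 99.65 for frame-preserving and 99.5 for frame-shifting sites. At 13 to 100 nt (8560 sites) it was 15.68 and 5.48, and at over 100 nt (2391 sites) 1.34 and 0.9. The medians in the middle bin describe few of its sites, since use there was mostly all or none. In siControl Veh, 40.8% of its sites had a PSI of at least 90, 7.7% lay between 10 and 90, and 51.5% had at most 10. The corresponding shares were 83.9%, 6.3% and 9.8% under 13 nt, and 28.2%, 6.4% and 65.5% over 100 nt. These medians and shares describe the sites the table lists, many of them hardly used in these cells.

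**Figure D1:**
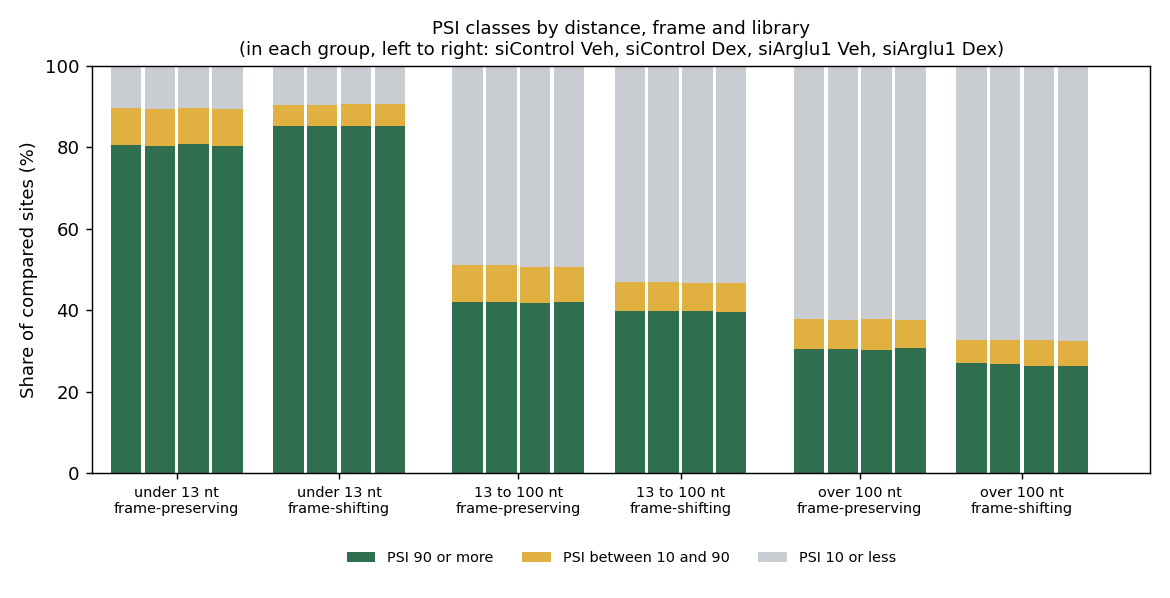
Share of compared sites (y axis, percent) with a PSI of 90 or more, between 10 and 90, or 10 or less, by distance bin and frame (x axis), with 1 bar for each of the 4 libraries. The bars of the 4 libraries are nearly level within each group, and the share at 90 or more is highest under 13 nt and lowest over 100 nt.

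The 4 libraries could hardly be told apart by level. For frame-preserving sites at 13 to 100 nt, the median PSI was 15.68, 14.72, 14.32 and 13.73 in the 4 libraries. For frame-shifting sites of the same bin, it was 5.48, 5.56, 4.75 and 4.59. The mean PSI moved less, from 46.6 to 46.4 for the former and from 43.6 to 43.3 for the latter. Under 13 nt, the means of all sites lay between 87.0 and 87.2, and over 100 nt between 31.1 and 31.3. The median difference of PSI over all compared sites was 0 in each of the 4 comparisons. Most of these sites had a PSI of at most 10 or at least 90 in all 4 libraries, with little room to move.

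Nucleotide by nucleotide, the upstream acceptor was nearly always the one used at 2 nt (median PSI 99.84 in siControl Veh, 394 sites) and at 4 nt (99.39, 1140 sites). The excluded sites at 3 nt between them had a median of 91.3 (1729 sites). At 6 nt the median was 99.72 and at 9 nt 99.98. It was still 93.85 at 12 nt (197 sites) and then 3.12 at 13 nt (135 sites). This step coincides with the border of the first bin. From 16 to 20 nt the median was 0.92. It was 80.0 at 31 to 50 nt and 90.26 at 51 to 75 nt, where the quartiles spanned 0.33 to 99.73 and 0.68 to 99.74. At the other border, the median was 5.0 at 100 nt (39 sites) and 1.4 at 101 nt (35 sites). At 201 to 496 nt it was 0.0, with an upper quartile of 2.36. A single base separated 61 pairs of acceptors, with a median PSI of 18.33 and quartiles at 0.0 and 100.0.

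**Figure D2:**
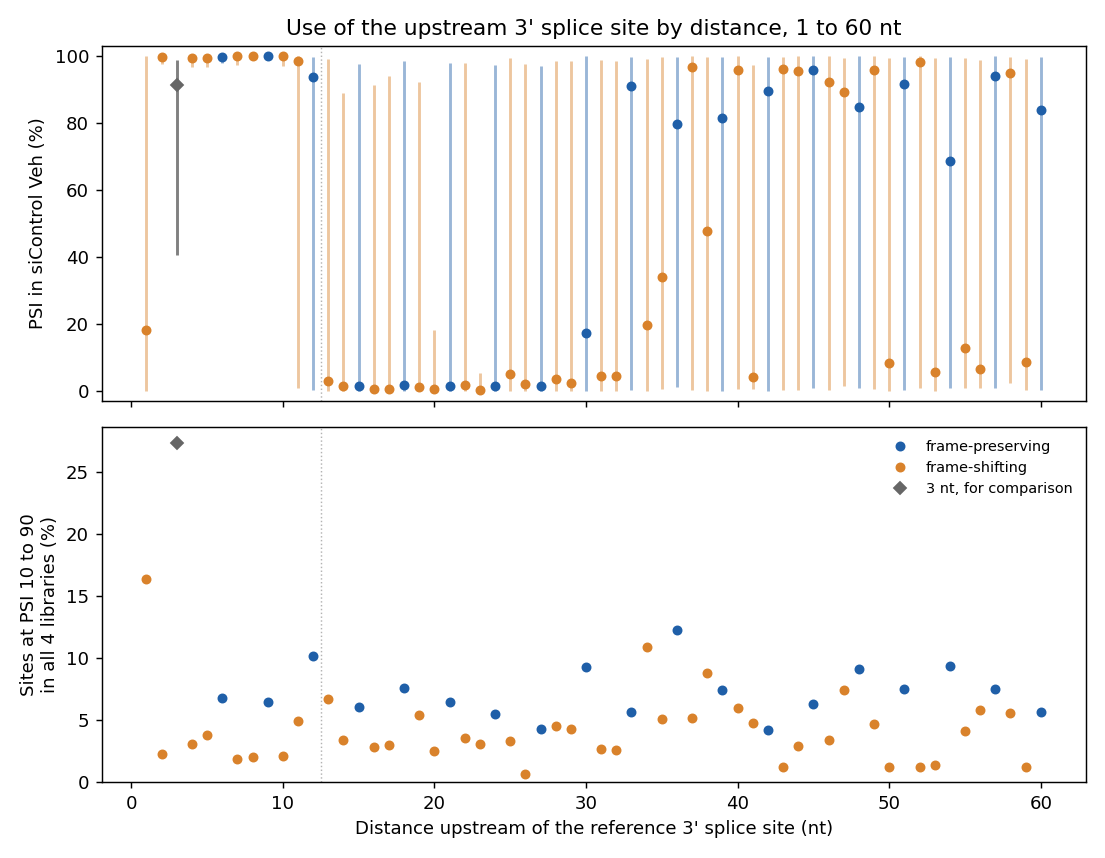
Upper panel, median PSI in siControl Veh (points, percent) with its quartiles (lines) at each distance from 1 to 60 nt (x axis), and lower panel, the percent of sites with a PSI of 10 to 90 in all 4 libraries. Blue points are distances that keep the reading frame, orange points those that shift it, and the grey diamond marks sites at 3 nt. The median drops from 93.85 at 12 nt to 3.12 at 13 nt, and most blue points in the lower panel lie above their orange neighbours.

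Sites used at an intermediate level were few and more often kept the reading frame. A PSI between 10 and 90 in all 4 libraries was found for 739 sites (4.9%), at least 90 in all 4 for 7234 and at most 10 in all 4 for 6196. Among sites at 3 nt the share between 10 and 90 was 27.3%. Of all compared sites 36.1% were frame-preserving, and of the 739 intermediate ones 47.9%. The excess was seen in each bin, with 26.9% of all and 45.4% of intermediate sites under 13 nt, 40.4% and 50.1% at 13 to 100 nt, and 35.9% and 42.3% over 100 nt. Put the other way, 6.6% of frame-preserving and 4.0% of frame-shifting sites were intermediate. Sites are not independent replicates, and these shares carry no test.

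The number of sites in an event moved with the level too. In events with 2 sites the median PSI at 13 to 100 nt was 44.57 (5744 sites), and in events with 3 or more it was 2.52 (2816 sites). Under 13 nt the medians were 99.78 and 95.09, and over 100 nt 1.3 and 0.82. In sequence, sites of different use under 13 nt differed in the base before the AG of the reference acceptor. AAG stood there for 19% of 269 matched sites with a PSI of at least 90, for 7.0% of 100 intermediate ones and for 3.7% of 27 with at most 10, while CAG made up 62.1%, 72.0% and 81.5%. At 13 to 100 nt the share of AAG was 12.2%, 8.6% and 7.1%, and that of CAG was nearly level, at 74.0%, 73.6% and 72.4%. The 20 bases in front of the last 3 held a median of 65%, 65% and 70% C or T there. Over 100 nt, CAG made up 71.1%, 82.6% and 73.4%. The lowest class under 13 nt is small, and none of these shares was tested.

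After knockdown in vehicle, 149 of the 14934 sites differed by at least 15 PSI, 66 higher and 83 lower in siArglu1 Veh than in siControl Veh. They lay in 134 events of 133 genes. That is 0.998% of the sites, against 1.85% of the 61786 cassette exons and splice sites of all types compared by the same rule (0.795% higher and 1.06% lower). The share was 2.39% of cassette exons and microexons, 1.29% of Alt5 sites and 2.89% of the Alt3 sites at 3 nt. In the Dex pair, 116 sites differed (0.777%), 46 higher and 70 lower, with a background of 1.45%, 0.626% higher and 0.821% lower. Lower sites outnumbered higher ones in both pairs, as they did among all exons and sites.

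The counts for Dex were lower. Between siControl Dex and siControl Veh, 90 sites differed, 45 in each direction (0.603%), with a background of 0.704%, 0.345% higher and 0.359% lower. Between siArglu1 Dex and siArglu1 Veh, 105 did, 57 higher and 48 lower (0.703%), with a background of 0.913%, 0.49% higher and 0.422% lower. The 4 comparisons reuse the same 4 libraries, so their counts are not independent. In all, 298 sites passed 15 in at least 1 comparison.

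Most called sites were of intermediate level in a library that the comparison did not use. So that a change could not decide its own class, the level was read in siControl Dex for knockdown in vehicle, in siArglu1 Veh for Dex in siControl, and in siControl Veh for the remaining comparisons. Of the 1085 sites with a PSI between 10 and 90 there, 121 (11.2%) passed 15 after knockdown in vehicle, against 28 of the other 13849 (0.202%). The shares were 9.11% of 1065 after knockdown in Dex, 6.86% of 1078 with Dex in siControl and 7.23% of 1065 with Dex in siArglu1, against 0.115% to 0.202% of the other sites. Their median absolute difference was 5.16, 4.58, 3.52 and 4.0 PSI in the same order, against 0.26 to 0.31 over all sites. With its sign, the median difference of these intermediate sites was -1.0, -0.83, 0.0 and 0.11. After knockdown in vehicle and in Dex it was 0.0 and 0.8 under 13 nt, -1.12 and -1.4 at 13 to 100 nt, and -2.14 and -1.46 over 100 nt. These shifts were not tested. A PSI near either end of its scale has little room to move beyond that end and little counting error. The contrast between intermediate and other sites is therefore set in part by the scale. By distance, 8.76% of intermediate sites under 13 nt passed after knockdown in vehicle, 12.3% at 13 to 100 nt and 9.87% over 100 nt. In Dex the shares were 7.57%, 8.76% and 13.2%, so the order of the last bins changed between the pairs. Of all compared sites, frame-preserving ones passed in 1.26% of cases in vehicle and 1.08% in Dex, frame-shifting ones in 0.848% and 0.607%. Among intermediate sites only, the shares were 12.7% and 11.2% for frame-preserving and 9.98% and 7.51% for frame-shifting ones.

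**Figure D3:**
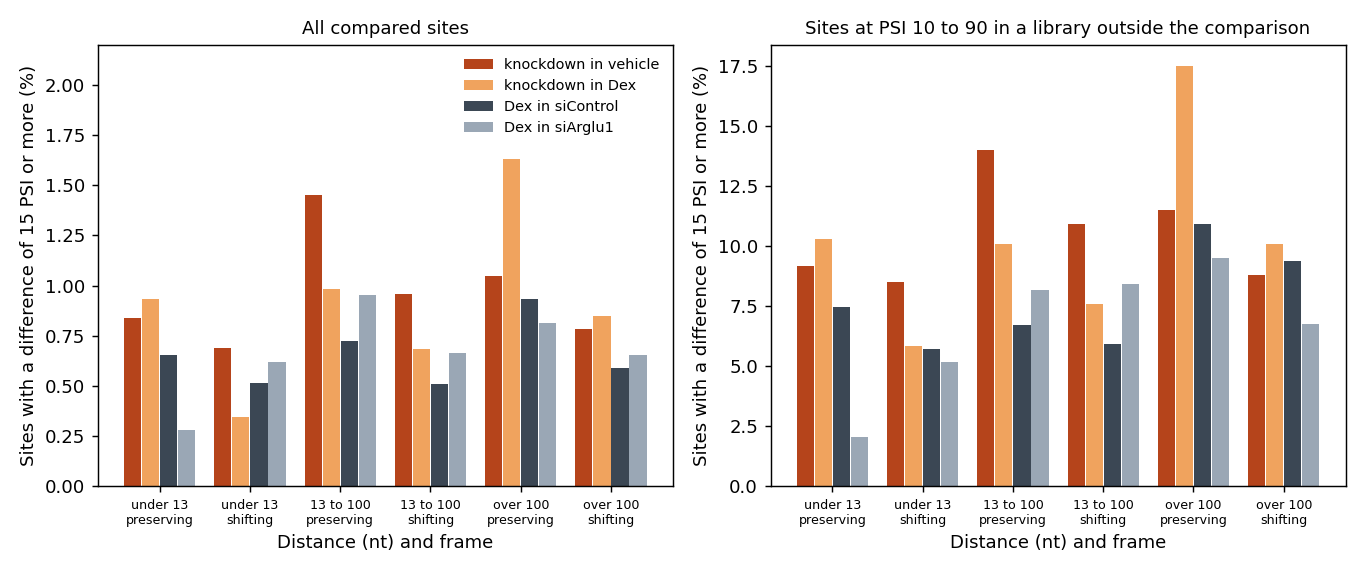
Percent of sites that differed by at least 15 PSI (y axis) by distance and frame (x axis) in the 4 comparisons (colours), for all compared sites on the left and on the right for sites with a PSI between 10 and 90 in a library outside the comparison. Left bars stay under 2%, while right bars reach 17.5% for frame-preserving sites over 100 nt after knockdown in Dex, which are 11 of 63 sites.

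How many sites passed depended on the junction reads behind them. After knockdown in vehicle, 3.13% of 3128 sites with fewer than 40 reads in at least 1 library passed 15. The share was 1.06% of 3960 sites with 40 to 99 reads in the thinnest library, and 0.115% of 7846 with 100 or more in all 4. For Dex in siControl it was 2.05%, 0.581% and 0.0382%. The counting interval of the difference left out 0 for 85 of the 149 sites in vehicle, 73 of the 116 in Dex, 55 of the 90 with Dex in siControl and 42 of the 105 with Dex in siArglu1. For the others the interval held 0.

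The vehicle and the Dex pair share no library, so one can be read against the other. Of the 149 sites called after knockdown in vehicle, 84 had the same sign in Dex, 61 the opposite sign and 4 no difference. Past 15 in both pairs and in the same direction were 31 sites, 12 higher and 19 lower, or 0.208% of those compared, against 0.507% of all exons and splice sites. In opposite directions were 14. These cases differed in coverage. Of 51 such sites with 40 or more reads in all 4 libraries, 38 moved the same way, 16 passed in both pairs and 2, both in Ptma, passed in opposite directions. Of the 98 with fewer reads, 46 moved the same way and 49 the other way. With 100 or more reads in all 4, 8 of 9 moved the same way, and the 3 that passed in both pairs were in Cask, Elf2 and Rpl23.

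Of the 90 sites called in siControl, 39 had the same sign in siArglu1 and 50 the opposite sign. Past 15 in both pairs and in the same direction were 5 sites (0.0335%, against 0.0469% of all exons and splice sites), and 11 passed in opposite directions. None of the 5 had 40 or more reads in every library. Both Dex pairs and both knockdown pairs rest on the same 4 libraries.

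**Figure D4:**
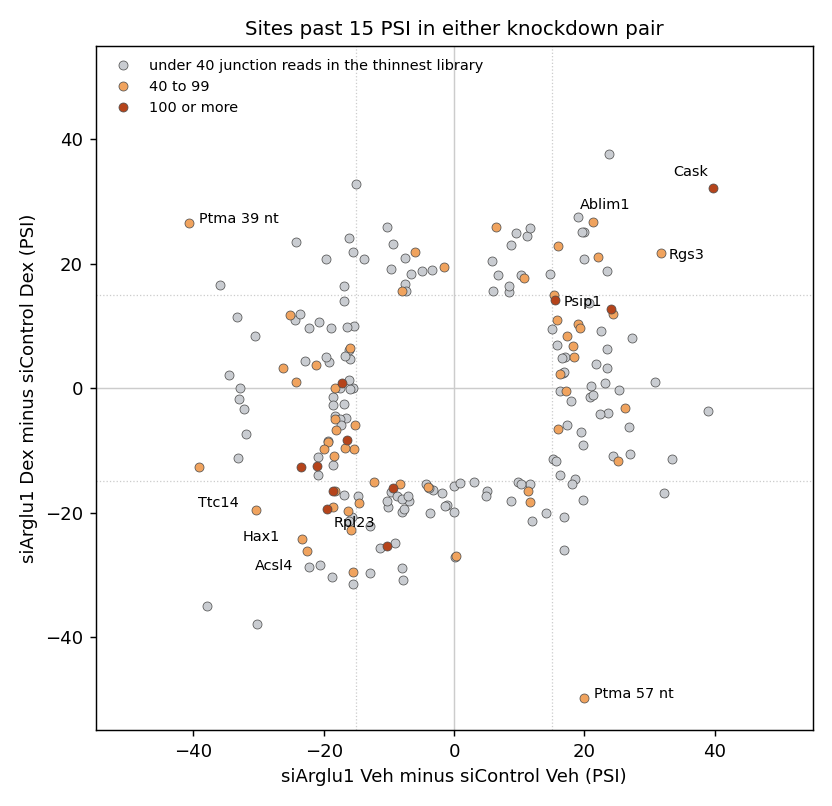
Difference of PSI after knockdown in vehicle (x axis) and in Dex (y axis) for each site past 15 PSI in either pair, coloured by the junction reads of its thinnest library, with dotted lines at 15 in both directions. Sites with 100 or more reads that pass in both pairs lie in the upper right (Cask) or lower left (Rpl23 and Elf2) corner, and the sites in the upper left and lower right corners have fewer reads.

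Among sites with 40 or more reads in all 4 libraries, the largest rise in both pairs was at a site 15 nt upstream in Cask, which encodes a synaptic scaffold kinase. This site keeps the frame and lies at chrX:13114967 on the minus strand, with the reference acceptor at 13114952. Its PSI was 12.18 in siControl Veh (156 junction reads, exact 95% interval 7.49 to 18.4) and 16.67 in the other control, against 51.88 and 48.84 in the knockdown libraries. Both knockdown libraries lay above both control libraries, which choosing sites by both pairs favours. The difference was 39.7 PSI in vehicle (Newcombe interval 29.32 to 49.04) and 32.17 in Dex (22.16 to 41.18), while Dex moved the site by 4.49 and -3.04. The log2 ratio of Cask reads was -0.32 and -0.28.

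A site 363 nt upstream in Rgs3, a regulator of G protein signalling, went from 8.24 and 7.69 in the siControl Veh and Dex libraries to 40 and 29.47 in the siArglu1 ones, at chr4:62268280 on the plus strand. Its difference was 31.76 PSI in vehicle (17.51 to 45.6) and 21.78 in Dex (9.07 to 32.77), on 55 to 91 reads. In Ablim1, which encodes an actin-binding LIM protein, the 6-nt site printed above was used at 59.76 and 51.97 in the controls and at 81.03 and 78.69 after knockdown. Both values after knockdown again lay above both controls, as the choice of sites favours. The intervals of the difference were 7.43 to 32.28 in vehicle and 12.57 to 38.25 in Dex. The log2 ratio of Ablim1 reads was -1.27 and -1.03, and the knockdown libraries had 58 and 61 junction reads against 169 and 152.

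Whamm, an actin nucleation factor of the Golgi region, used a frame-shifting site at 14 nt at 5.45 and 6.9 in the controls and at 27.5 and 28.0 after knockdown, on 40 to 58 reads. In Fmr1, the gene of the RNA-binding protein FMRP, a 36-nt site went from 73.67 and 69.57 to 88.95 and 84.58, a difference of 15.28 PSI in vehicle (1.75 to 25.36) and 15.01 in Dex (3.65 to 25.23). The log2 ratio of Fmr1 reads was -0.86 and -0.74. Psip1, whose product LEDGF binds chromatin, had 7 acceptors in its event, and the one at 245 nt went from 28.7 and 27.72 to 44.23 and 41.89. With 475 to 624 reads it had the narrowest intervals of these sites, 9.67 to 21.27 in vehicle and 8.49 to 19.78 in Dex, although the Dex difference of 14.17 is under 15. In 2810403A07Rik a 6-nt site went from 26.67 and 27.57 to 50.79 and 40.28, a difference of 24.12 PSI in vehicle and 12.71 in Dex.

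**Figure D5:**
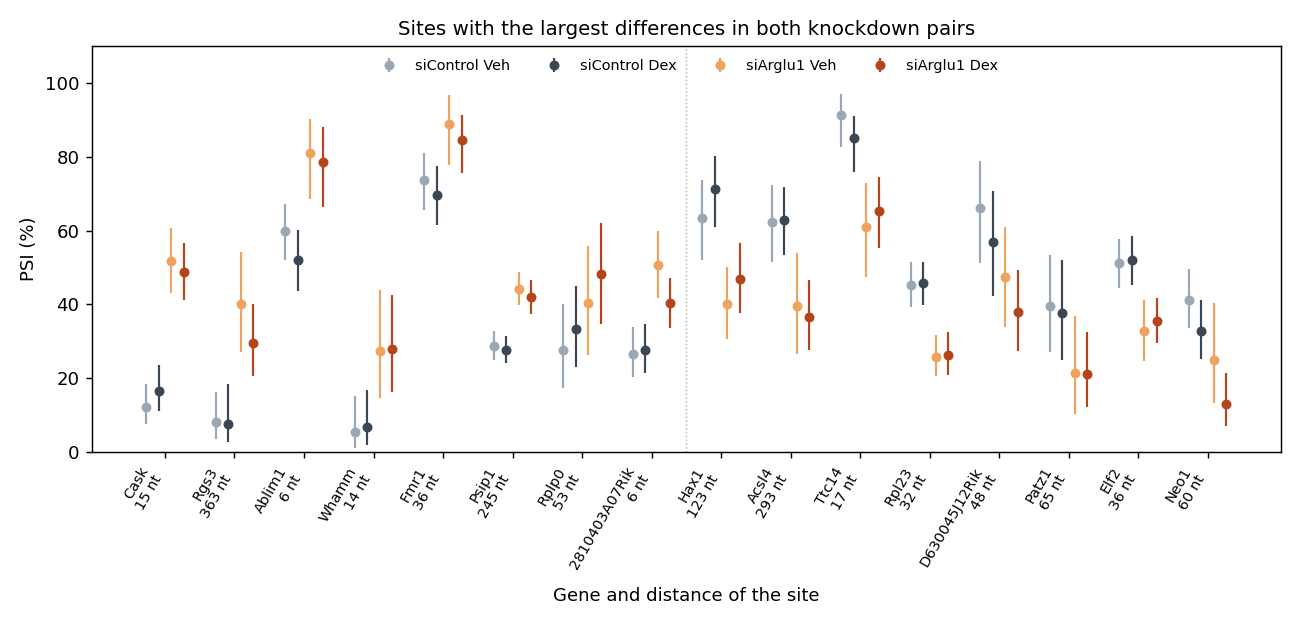
PSI (y axis, percent) of 16 sites (x axis, gene and distance) in the 4 libraries (colours), with exact 95% intervals from junction reads as lines. The 8 sites left of the dotted line are those of rising use after knockdown and the 8 on the right those of falling use. At each of them both knockdown libraries lie on the same side of both control libraries, which choosing sites by both pairs favours.

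By the smaller difference of both pairs, Hax1 led the falls at sites with 40 or more reads in all 4 libraries. Hax1 encodes an apoptosis regulator of mitochondria. Its 123-nt site, with the upstream acceptor at chr3:89802025, went from 63.37 and 71.24 to 39.97 and 46.93. Acsl4, an acyl-CoA synthetase for arachidonic acid, came next, and its 293-nt site went from 62.22 and 62.93 to 39.62 and 36.7. Ttc14 encodes a tetratricopeptide repeat protein. Its frame-shifting 17-nt site had a PSI of 91.33, 85.02, 61 and 65.36 in the 4 libraries, on 61 to 104 reads. In vehicle the difference was -30.33 PSI, with an interval of -43.68 to -16.08, and in Dex -19.66, with -30.81 to -7.73. None of the intervals of the differences in Hax1, Acsl4 and Ttc14 held 0, which choosing sites by the same differences favours. Larger falls at fewer reads include the 36-nt site of Qpctl, at -37.88 PSI in vehicle and -35.0 in Dex, on 16 to 40 reads. The 282-nt site of Hspb2 fell by -30.32 and -37.92, on 39 to 81 reads.

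The 36-nt site of Elf2, an ETS family transcription factor, went from 51.32 and 52.04 to 32.69 and 35.54 on 132 to 257 reads, with intervals of -28.46 to -8.02 in vehicle and -24.91 to -7.75 in Dex. Rpl23 encodes a protein of the large ribosomal subunit, and its 32-nt site went from 45.35 and 45.73 to 25.79 and 26.36. This event had 239 to 293 junction reads although the gene had 97966 to 128170 reads. Near-identical copies of ribosomal protein genes can take or give reads, so the PSI of this event is uncertain. Their part in it was not tested. Over all genes with symbols that start with Rpl or Rps, 3 sites were higher and 4 lower of 116 compared in vehicle. That is 6.03%, against 0.998% of all these Alt3 sites. In Dex, 1 was higher and 3 lower (3.45%, against 0.777%). The higher ones in vehicle include a site of Rps6kb2, a kinase gene that such a symbol takes in.

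The other falls by the same measure had fewer reads. The 48-nt site of D630045J12Rik went from 66.0 and 56.86 to 47.37 and 37.8, the 60-nt site of Neo1, a netrin receptor, from 41.29 and 32.87 to 25 and 13.13, and the 65-nt site of Patz1, a zinc finger transcription factor, from 39.66 and 37.74 to 21.43 and 21.13. For D630045J12Rik and Patz1 the vehicle interval reached 0, at -35.57 to 0.17 and -34.35 to 0.33. In 4933436C20Rik, a noncoding transcript in the annotation, sites at 6 nt and 192 nt mirrored each other. The near one went from 42.5 and 44.68 to 26.62 and 21.88, while the log2 ratio of this gene's reads was 1.82 and 1.57. In Rplp0, a protein of the ribosomal stalk, the site at 53 nt was higher after knockdown and the one at 118 nt lower. Both had intervals that held 0 in both pairs. So did the rises of Chkb, a choline kinase, at 34 nt and of Smc3, a cohesin subunit, at 2 nt, which passed 15 in vehicle only. The 4-nt site of Snapc4, a subunit of the complex that activates snRNA genes, was at 100.0 in both controls and at 81.52 and 89.03 after knockdown.

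The sites with the largest differences with Dex in siControl had smaller or opposite differences in the siArglu1 cells. Choosing sites by an extreme value in the siControl pair by itself favours a smaller value in the siArglu1 pair. A loss of the Dex response after knockdown therefore cannot be read from these sites, and it was not tested. Timm9, a chaperone of mitochondrial import, used its 5-nt site at 57.65 in siControl Veh and 80.25 in siControl Dex, and at 76.03 and 85.24 after knockdown. Dex thus moved it by 22.6 PSI (9.02 to 35.52) and 9.21 (-2.71 to 21.39). Fam45a at 20 nt moved by 20.84 (1.64 to 38.38) and 10.56 (-4.35 to 23.53). At the other sites the sign turned. Cc2d1a at 27 nt moved by 22.96 and -13.93, the BC017647 site by 18.01 and -9.32, the Zfp346 site by -21.33 and 6.51, 3830403N18Rik at 48 nt by -23.58 and 2.94, and Rpl10a at 37 nt by -23.79 and 1.14. The largest, at 39 nt in Ptma, was -49.85 in siControl and 17.32 in siArglu1. The sites chosen for the largest move in both Dex pairs were small in size. Unc50 at 4 nt, in its untranslated leader, was at 98.69, 84.05, 91.88 and 82.66 in the 4 libraries, on 305 to 378 reads. Its intervals were -19.01 to -10.58 and -14.08 to -4.23, and it passed 15 in neither. The corresponding differences were 15.81 and 9.82 for Pigo, an enzyme of GPI anchor synthesis, at 7 nt, and -9.18 and -16.52 for 1110005A03Rik at 56 nt. The Pigo intervals were 3.0 to 30.56 in siControl and -4.2 to 21.34 in siArglu1. For 1110005A03Rik the interval held 0 in both, at -27.05 to 9.65 and -33.59 to 2.1.

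Host genes of called sites were compared for their reads. Past a log2 ratio of 0.81 in either direction were 16 of 133 host genes after knockdown in vehicle (12%, 3 higher and 13 lower), against 15.8% of the 12497 genes with 75 or more reads, 7% higher and 8.77% lower. In Dex it was 7 of 104 (6.73%, 2 higher and 5 lower), against 12.1%, 6.19% higher and 5.93% lower. Fewer transcripts of a gene and fewer cells that express it cannot be told apart here.

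By function of the host gene, judged from patterns of gene symbols, chromatin proteins had the largest share of called sites after knockdown in vehicle among 5 lists. Of 374 compared sites in them, 5 were higher and 5 lower (2.67%, against 0.998% of all these Alt3 sites), but 3 and 1 in Dex (1.07%, against 0.777%). Those called in vehicle include 4 sites in 2 events of Mll3, a histone methyltransferase, with 23 to 52 reads. They also include a site of Jmjd4, which was listed by its symbol and need not act on chromatin. The Mll3 site at 68 nt had a PSI of 35.95, 15.97, 19.88 and 40.04. It was thus lower after knockdown in vehicle and higher after knockdown in Dex. Genes of RNA-binding and splicing proteins had 2 higher and 1 lower of 472 in vehicle (0.636%) and none in Dex. Neuronal and cytoskeletal genes had 1 higher, in Cask, and 1 lower, in Myo9b, an unconventional myosin, of 284 (0.704%), zinc finger genes 2 higher and 3 lower of 234 (2.14%), and trafficking and small GTPase genes 2 higher and 3 lower of 436 (1.15%). In Dex, these 3 lists had 0.704%, 1.71% and 0.459%. The neuronal and cytoskeletal list had 2 higher and 0 lower there, in Cask and Myo9b. The Myo9b site, at 106 nt, thus turned its sign between the pairs, with a difference of 32.76 PSI after knockdown in Dex. It had 20 to 37 reads per library. The median difference was 0 for all 5 lists, as over all sites. With Dex in siControl the 5 lists had 0 to 4 called sites each, or at most 1.28%, against 0.603% of all these Alt3 sites. With Dex in siArglu1 they had 2 to 7, or at most 1.87%, against 0.703%.

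The proteins that choose 3′ splice sites were also measured as genes. Of 39 genes listed, 38 were found, all with 75 or more reads, and none was higher and 3 lower by 0.81 or more after knockdown in vehicle, 7.89% of them against the background of 15.8%. The same 3 were lower in Dex, with a background of 12.1%. They are Ptbp2, a neuronal repressor that binds polypyrimidine tracts, with 15690, 16547, 4671 and 5972 reads and log2 ratios of -1.73 and -1.76. Prpf18, which acts in the step that chooses the AG, had -1.21 and -1.23. Ddx42, a helicase that associates with the U2 snRNP, had -0.9 and -0.84. The median over the 38 genes was -0.19 in vehicle and -0.21 in Dex, and 0 over all genes.

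Of the U2AF proteins, U2af2 had log2 ratios of 0.08 and 0.04 and U2af1 of 0.1 and -0.08, while Puf60, a partner of U2AF2, had 0.08 and -0.07. The factors of the last step differed among themselves, since Slu7 had -0.11 and -0.08 and Dhx38 -0.21 and -0.04, against -1.21 and -1.23 for Prpf18. Around the branch point, Sf1 was at -0.59 and -0.5 and Sf3b1 at -0.53 and -0.48. Their smaller SF3B partners Sf3b5 and Phf5a were at 0.81, just under the threshold before rounding, and 0.79 in vehicle, and at 0.5 and 0.52 in Dex. In these genes themselves, 93 sites in 28 genes were compared, and 1 passed 15 after knockdown. This was a 129-nt site of Sf3b3, at 7.28, 13.34, 32.59 and 13.02, with 23 and 26 reads in the knockdown libraries. Its difference was 25.31 PSI in vehicle and -0.32 in Dex.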

How the data were processed

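Poly(A) RNA libraries (TruSeq V2, HiSeq2500) were made from mRNA pooled over 3 cultures, 1 library per group. The authors deposited PSI as a percent from 0 to 100, with a coverage score and junction reads, in 3 splicing tables. The authors also deposited a count of reads per gene, not normalized, and the RPKM corrected for mappability (cRPKM), printed for no gene here; 2 columns of their own ratios were not used. The submitters' processing notes name Bowtie and mm9; the sources used here give no other settings. In the tables the score N goes with 0 to 9 junction reads, VLOW with 10 to 19, LOW with 20 to 39, OK with 40 to 99 and SOK with 100 or more.

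A site was called at a difference of at least 15 PSI, siArglu1 minus siControl or Dex minus Veh. No test of PSI was made, as groups have 1 library. Exact (Clopper-Pearson) and Newcombe 95% intervals were computed from junction reads with SciPy 1.17.1. They took PSI times reads as the reads of a site, which is whole for 87.3% to 89.1% of sites (within 0.05 reads plus rounding). They cover counting error only, and reads without molecular identifiers are not independent molecules. Log2 ratios of genes used edgeR 4.0.16 with TMM scaling on genes with 75 or more reads summed over the libraries and a prior count of 1. DESeq2 1.42.0 size factors and an additive edgeR quasi-likelihood model were alternatives. The scripts were tested on simulated data. The members, gene lists, thresholds and rules were chosen with earlier results of these data known.

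The named sites have 40 or more reads in all 4 libraries. They are the 8 largest rises and 8 largest falls by the smaller difference of both knockdown pairs, the 2 largest of each in every bin and frame past 15 in either pair, the 4 largest of each with Dex in siControl, and the 2 largest of each in both Dex pairs, with 1 site per event, that of the larger difference. Sites of factor genes past 15 were added at any coverage. Mll3 and Myo9b were named after their values were seen, and genes that the name patterns of the lists took in wrongly (Snapc, Ephx, Mllt4, Vps72) were then removed. Others of uncertain place, such as Jmjd4 and Ddx11, remained in the lists. Sequences came from GENCODE M21 transcripts. Some marker genes are not reported here.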

Additional observations from a re-analysis of the deposited data

Results flagged for a closer look

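The site of Ptma at 39 nt, in the gene of the abundant nuclear protein prothymosin alpha, moved in opposite directions in pairs that share no library. Its PSI was 100.0 and 50.15 in the siControl Veh and Dex libraries and 59.29 and 76.61 in the siArglu1 ones. After knockdown the difference was -40.71 in vehicle and 26.46 in Dex, and with Dex it was -49.85 in siControl and 17.32 in siArglu1. The Newcombe intervals, which cover counting error only, left out 0 in all 4. The differences between the pairs were not tested, since each group is 1 library. The site at 57 nt of the same event was at 0.0, 49.85, 19.97 and 0.0 in the same order. The event had 66 to 74 junction reads per library while the gene had 216267 to 252281 reads, and Ptma has near-identical copies in the genome. Their part in these values was not tested.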

How the results depend on the processing

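Counts are given for knockdown in vehicle, knockdown in Dex, Dex in siControl, Dex in siArglu1, both knockdown pairs and both Dex pairs, in this order, where those above were 149, 116, 90, 105, 31 and 5. At a threshold of 10 PSI they were 357, 299, 236, 283, 79 and 25, and at 25 PSI 28, 29, 15, 18, 3 and 1. With 40 or more junction reads in all 4 libraries they were 51, 32, 26, 14, 16 and 0, and with 100 or more 9, 5, 3, 1, 3 and 0. Without a coverage minimum they were 810, 750, 713, 752, 190 and 153. The counting interval left out 0 for 85, 73, 55, 42, 20 and 3, and events with 2 sites gave 89, 66, 48 and 60 for the single comparisons. These settings change how many sites enter by construction. Counting events instead of sites and leaving out complex events kept all 6 counts within 1.5 times. So did settings chosen after seeing the data, leaving out genes with Rpl or Rps symbols and Ptma, or introns under 50 nt. The median PSI at 13 to 100 nt in siControl Veh was the level most dependent on the choice of sites. For frame-preserving sites it was 15.68, and 8.17 with 40 or more reads in all libraries, 5.45 with 100 or more and 72.55 in events with 2 sites. For frame-shifting sites it was 5.48, and 1.67 and 16.88 with the last 2 of these settings. Of the factor genes, 3 passed 0.81 in vehicle, also with DESeq2 size factors, without the filter and with a prior count of 0.25. The additive edgeR model, which pools both knockdown pairs and takes the spread between them as error, called 21 of 38 at an adjusted p under 0.05, 4 higher and 17 lower, and 7704 (61.6%) of all 12497 genes. That model pairs libraries by treatment. Each group is 1 library, so there were no replicates to pair or to leave out.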

Other observations

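The sites in this paragraph were chosen after their values were seen. Of sites with 100 or more junction reads in all libraries, the 4-nt site of St6galnac6, a sialyltransferase, had a PSI of 96.07 and 96.51 in the siControl Veh and Dex libraries and 78.88 and 97.3 in the siArglu1 ones. The value in siArglu1 Veh rests on 207 reads. The 18-nt site of Glyr1, a nucleosome-binding protein, went from 73.92 and 75.2 in the controls to 52.9 and 62.71 after knockdown. The 21-nt site of Atp6v0a1, a subunit of the vacuolar proton pump, went from 40.7 and 47.95 to 30.34 and 22.52. The 21-nt site of Meis2, a homeobox factor, went from 29.01 to 45.71 with Dex in the control cells and from 41.96 to 31.6 in the knockdown cells. At fewer reads, the 36-nt site of Trerf1, a transcriptional regulator, was at 24.53 and 23.53 in the vehicle libraries and at 60.42 and 54.9 in the Dex libraries, on 34 to 53 reads. This was the largest move in the same direction in both Dex pairs among the sites compared, and in the siArglu1 Veh library it was below the 40 reads that named sites needed.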
